A study of Mus musculus with 12 samples.

Results

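The Krüppel-like factors (KLFs) are transcription factors that bind GC-rich and CACCC sequences through zinc fingers at the end of the protein. The 10 genes described here, *Klf2*, *Klf3*, *Klf4*, *Klf6*, *Klf9*, *Klf10*, *Klf11*, *Klf12*, *Klf13* and *Klf15*, were the rows of the liver count table whose Ensembl identifiers carry these symbols in the GENCODE mouse annotation. They were 10 of 55414 rows, and 10 of the 18 genes named *Klf* that had a row. The libraries were made from whole livers of female C57BL/6J mice, aged 8 to 12 weeks by the study's methods, which had received an injection of 0.9% NaCl or of 300 mg/kg FeSO4 (iron sulfate) into the peritoneum. After 6 h the same mice received PBS or 10 mg/kg of the synthetic glucocorticoid dexamethasone (DEX), and the livers were taken 2 h later, 8 h after the first injection. There were 3 mice in each of the groups NaCl/PBS, NaCl/DEX, FeSO4/PBS and FeSO4/DEX, so that the NaCl/PBS controls had been given both vehicles.

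KLF proteins fall into groups by the partners they recruit. KLF2, KLF4 and KLF6 are mainly activators, of which KLF2 and KLF4 are known from the endothelium, where laminar flow induces them and where they maintain thrombomodulin and endothelial nitric oxide synthase. KLF3 and KLF12 repress through the corepressor CtBP, and KLF9, KLF10, KLF11 and KLF13 through Sin3A. In the liver KLF15 is known for control of amino acid breakdown and gluconeogenesis, KLF10 and KLF11 as genes induced early by TGF-beta, and *Klf9* and *Klf15* as genes that the glucocorticoid receptor (GR) can activate.

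All 10 members passed the filter on low counts. The 12 libraries held 16335651 to 23827340 counted reads each, and a member's own reads in 1 library ranged from 23 for *Klf4* to 6617 for *Klf9*. The values below are counts scaled to a common library size (normalized counts). LFC is the log2 fold change from edgeR's quasi-likelihood test across 13857 genes, with its standard error (SE). P-values measure the spread between these mice. With 3 mice against 3 an exact permutation test of a single gene cannot go below 0.1, so the test across all genes was used. A change was called at an FDR (Benjamini-Hochberg adjusted p over all tested genes) of 0.05 or less. One library stood apart from its group. FeSO4/PBS mouse 1 had the lowest value of its group in 10 of 10 members, and in 39.2% of all tested genes, although with 21940354 reads it was the deepest library of that group. What sets this mouse apart was not tested. Values without it are given beside the members whose call they change.

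Promoter sequences of members that rose and of a member that fell after FeSO4 are shown so that the letters in front of genes with opposite responses can be compared. The first 3 sequences are the 250 bases before the annotated start in GRCm39 (mm39) of members whose window overlapped no annotated exon. They are *Klf2* (chr8:73072476-73072725, plus strand), *Klf6* (chr13:5911231-5911480, plus strand), which both rose after FeSO4, and *Klf13* (chr7:63588664-63588913, minus strand), which fell. Capitals mark matches to any of the motifs listed after the sequences.
Klf2: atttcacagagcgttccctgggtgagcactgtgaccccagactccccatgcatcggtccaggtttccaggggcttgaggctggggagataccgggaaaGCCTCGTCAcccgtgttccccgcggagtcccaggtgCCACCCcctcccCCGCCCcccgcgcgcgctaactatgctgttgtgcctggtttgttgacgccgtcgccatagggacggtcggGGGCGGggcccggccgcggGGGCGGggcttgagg
Klf6: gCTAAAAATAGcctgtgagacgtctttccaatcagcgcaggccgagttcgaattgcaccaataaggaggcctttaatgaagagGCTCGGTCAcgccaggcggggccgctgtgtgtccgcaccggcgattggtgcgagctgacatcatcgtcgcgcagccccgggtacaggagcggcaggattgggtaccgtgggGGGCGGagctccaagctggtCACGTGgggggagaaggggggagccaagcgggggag
Klf13: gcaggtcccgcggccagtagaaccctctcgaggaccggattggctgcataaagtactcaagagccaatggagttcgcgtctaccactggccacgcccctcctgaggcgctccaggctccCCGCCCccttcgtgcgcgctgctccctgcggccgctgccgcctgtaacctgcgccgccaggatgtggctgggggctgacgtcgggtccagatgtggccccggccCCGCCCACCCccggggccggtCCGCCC

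These windows were searched on both strands, together with those of 21617 protein-coding genes. The GC box GGGCGG, a KLF and SP binding sequence, was in 8 of 10 members and in 36.4% of all promoters. The CACCC box CCACCC was in 4 members and 28.6% of promoters, and in *Klf13* it shared its first bases with a GC box. The E-box CACGTG was in *Klf4*, *Klf6*, *Klf11* and *Klf15*, against 6.29% of all promoters, and in *Klf6* it began 36 bases before the start. The antioxidant response core TGACNNNGC, the shared letters of the element bound by NRF2, was in *Klf2*, *Klf3*, *Klf6* and *Klf10*, against 9.68% of promoters. In *Klf3* it overlapped a GC box. The MEF2 letters CTANNNNTAG were in *Klf6* alone among members, beginning 249 bases before its start, and in 3.31% of all promoters. The AP-1 letters TGANTCA (6.19% of promoters), the cAMP element TGACGTCA (1.69%) and the glucocorticoid response element (GRE) GNACANNNTGTNC (0.301%) were in no member. The window of *Klf9* held none of the motifs. A match is a run of letters and not a measured binding site.

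In a longer window of 10000 bases before the start, the GRE letters were found before *Klf9* and *Klf10*, that is in 2 of 10 members and in 15.5% of all protein-coding genes. They are shown with 20 bases on either side since *Klf10* was the member that fell most with DEX and *Klf9* is a known GR target, with the GRE in capitals. The match lay 5730 bases before the start of *Klf9* (chr19:23112437-23112489, plus strand) and 3685 bases before that of *Klf10* (chr15:38304612-38304664, minus strand). The stretch shown overlapped an annotated exon for *Klf9* and none for *Klf10*.
Klf9: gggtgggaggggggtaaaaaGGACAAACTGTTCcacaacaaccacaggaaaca
Klf10: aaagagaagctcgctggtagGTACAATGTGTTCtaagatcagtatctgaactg

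The first question was what acute iron did to the family in mice without DEX. Of the 10 members, 7 rose (*Klf2*, *Klf3*, *Klf4*, *Klf6*, *Klf9*, *Klf10* and *Klf11*) and 2 fell (*Klf13* and *Klf15*) in FeSO4/PBS against NaCl/PBS mice, while *Klf12* did not pass the test. Over all tested genes 27.2% rose and 27.3% fell. Of the members 8 changed beyond an LFC of 1 in size, as did 27.2% of all genes. The median LFC of the members was 1.74, and that of all genes was -0.02. In 10 of 10 members the values of the FeSO4/PBS group lay apart from those of the NaCl/PBS group, which held for 60% of all genes.

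**Figure D1:**
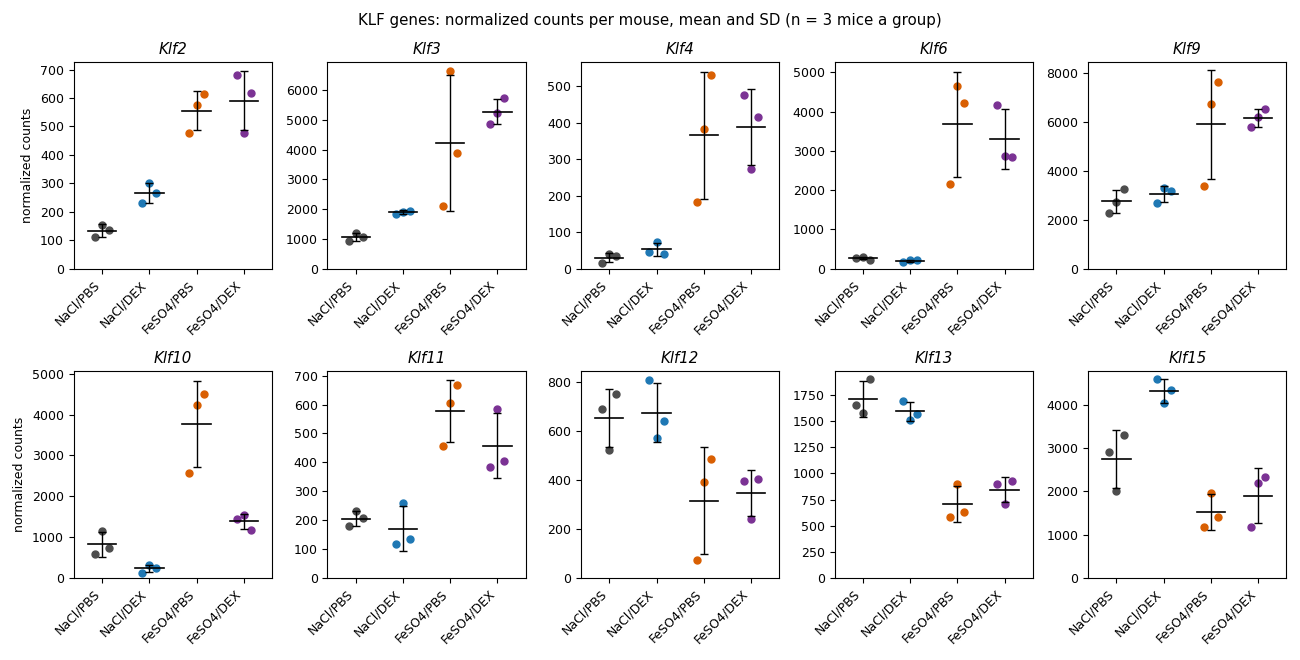
Normalized counts (linear axes from 0) of the 10 KLF genes in each mouse, with 1 point per mouse in the order 1, 2 and 3 within each group, and the group mean with its SD (n = 3). *Klf6* sits between 165 and 301 in the 6 NaCl mice and between 2155 and 4665 in the 6 FeSO4 mice, and the leftmost FeSO4/PBS mouse is the lowest of its group in every panel.

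*Klf6* (ENSMUSG00000000078, chromosome 13 from 5911481 to 5920393, plus strand) encodes a ubiquitous activator and tumor suppressor that is induced quickly by tissue injury. It had 286, 301 and 234 normalized counts in NaCl/PBS mice against 2155, 4665 and 4209.8 after FeSO4. Every iron-treated liver lay several-fold above every control, mouse 1 least. The LFC of 3.75 (SE 0.27, edgeR FDR 1.2e-07), which is 13.4-fold, was the largest among the members.

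*Klf4* (ENSMUSG00000003032, chromosome 4 from 55527139 to 55532528, minus strand) is one of the factors used to induce pluripotent stem cells. It had the lowest level of the members per length of gene in controls, and its normalized counts were 16.5, 39.3 and 33.9 in NaCl/PBS mice against 183, 384 and 529 in FeSO4/PBS mice. The lowest treated mouse was thus above the highest control, with an LFC of 3.63 (SE 0.41, edgeR FDR 6.0e-06).

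*Klf2* (ENSMUSG00000055148, chromosome 8 from 73072726 to 73075502, plus strand), the flow-induced factor of the endothelium, had 110.0, 155 and 137 normalized counts in NaCl/PBS mice and 479, 575 and 613 in FeSO4/PBS mice. The groups were well apart and both narrow, and the LFC was 2.05 (SE 0.17, edgeR FDR 5.5e-07). *Klf2* lies in an intron of *Eps15l1*, which is read from the other strand and shares no exon bases with it. *Eps15l1* had 3501 reads in all libraries together, against 4375 for *Klf2*. *Klf3*, *Klf10* and *Klf12* share exon bases with antisense RNAs that had 106, 6 and 101 reads in all libraries together, against 34922, 17462 and 6146 for the members. *Klf9* also shares exon bases with an antisense RNA, which had no row in the counts, so its reads are not known.

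*Klf10* (ENSMUSG00000037465, chromosome 15 from 38291703 to 38300959, minus strand) and *Klf11* (ENSMUSG00000020653, chromosome 12 from 24701273 to 24712913, plus strand) encode the Sin3A-binding repressors first described as TGF-beta inducible early genes. *Klf10* had 574, 1151 and 728 normalized counts in NaCl/PBS mice and 2562, 4249 and 4507 in FeSO4/PBS mice, which gave an LFC of 2.21 (SE 0.31, edgeR FDR 4.4e-05). *Klf11* had 178, 230.0 and 206 against 458, 606 and 668, an LFC of 1.50 (SE 0.26, edgeR FDR 2.5e-04). In both genes the lowest treated mouse was mouse 1, and it still lay above all controls.

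*Klf3* (ENSMUSG00000029178, chromosome 5 from 64959875 to 64990261, plus strand), which encodes a CtBP-dependent repressor, varied widely among treated mice. Its normalized counts were 936, 1202 and 1082 in NaCl/PBS mice and 2096, 6645 and 3899.9 in FeSO4/PBS mice. The LFC of 1.97 (SE 0.29, edgeR FDR 5.9e-05) was 2.30 without FeSO4/PBS mouse 1 and 1.48 without mouse 2.

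*Klf9* (ENSMUSG00000033863, chromosome 19 from 23118187 to 23148497, plus strand) encodes a repressor that is known as a target of glucocorticoid and thyroid hormone. It had 2299, 2715 and 3255 normalized counts in controls, and 3382, 6731 and 7618 in FeSO4/PBS mice. Mouse 1 was only just above the highest control, and the LFC was 1.10 (SE 0.23, edgeR FDR 0.0011).

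The members that fell, *Klf13* and *Klf15*, were in places 3 and 1 of the family by level per length of gene in control livers. *Klf13* (ENSMUSG00000052040, chromosome 7 from 63536099 to 63588663, minus strand), of the Sin3A-binding group, went from 1654, 1585 and 1911 normalized counts in NaCl/PBS mice to 585, 900.3 and 630.0 after FeSO4. Its LFC was -1.28 (SE 0.16, edgeR FDR 1.5e-05). *Klf15* (ENSMUSG00000030087, chromosome 6 from 90438998 to 90452220, plus strand), the regulator of amino acid breakdown, went from 2918, 2018 and 3317 to 1176, 1975 and 1407, an LFC of -0.86 (SE 0.25, edgeR FDR 0.0096). Here the highest treated mouse, with 1975, came close to the lowest control, with 2018.

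*Klf12* (ENSMUSG00000072294, chromosome 14 from 100103674 to 100522428, minus strand) encodes a CtBP-dependent repressor like KLF3. Its normalized counts were 687, 519.9 and 748 in NaCl/PBS mice and 70.6, 391 and 483 in FeSO4/PBS mice, so all treated mice were lower, mouse 1 by far. The LFC of -1.06 (SE 0.43) missed the threshold (edgeR FDR 0.052). Without FeSO4/PBS mouse 1 the LFC was smaller, -0.57, and passed it (edgeR FDR 0.042), and without FeSO4/PBS mouse 3 it was -1.49 (edgeR FDR 0.019). Scaled by library size alone, it also passed (-1.36, edgeR FDR 0.019). The common coefficient of variation between mice over all genes was 0.145 without mouse 1 and 0.169 with it.

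Leaving FeSO4/PBS mouse 1 out changed no other call in this comparison. The LFCs of the 7 members that rose were then between 1.39 for *Klf9* and 4.02 for *Klf6*, each larger than with it, and those of *Klf13* and *Klf15* were -1.16 and -0.70.

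The second question was whether the same response was seen in mice that also received DEX, which are 6 other livers. In FeSO4/DEX against NaCl/DEX mice 7 members rose and 2 fell, against 22.4% and 20.9% of all genes. Of the members 8 changed beyond an LFC of 1, as did 20.5% of all genes. They were the same 9 members in the same direction as in PBS mice. Over all genes 7553 were called in PBS mice and 6005 in DEX mice, and 4820 in both, of which 4716 moved in the same direction. The median LFC of the members was 1.28 and that of all genes was 0.01. No FeSO4/DEX mouse overlapped the NaCl/DEX mice in 10 of 10 members, against 55.9% of all genes.

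*Klf6* again had the largest LFC, 4.04 (SE 0.27, edgeR FDR 1.3e-07). Its normalized counts were 165, 219 and 218 in NaCl/DEX mice and 4179.6, 2872 and 2847 in FeSO4/DEX mice, which is 16.4-fold. *Klf4* had 46.2, 72.4 and 40.3 against 476, 273 and 415, an LFC of 2.87 (SE 0.39, edgeR FDR 4.7e-05). Both genes were several-fold higher in each iron-treated mouse than in any other mouse of this pair of groups.

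*Klf10* had 126, 313 and 248 normalized counts in NaCl/DEX mice and 1452, 1532 and 1183 in FeSO4/DEX mice, an LFC of 2.60 (SE 0.32, edgeR FDR 2.4e-05). *Klf3* had 1839.8, 1917 and 1952 against 4872, 5224 and 5723, an LFC of 1.47 (SE 0.28, edgeR FDR 7.9e-04). The *Klf3* values within each of these groups were close together, unlike those in FeSO4/PBS mice. *Klf11* had an LFC of 1.42 (SE 0.26), *Klf2* of 1.15 (SE 0.17) and *Klf9* of 1.01 (SE 0.23), with edgeR FDRs of 6.4e-04, 9.5e-05 and 0.0027. The normalized counts of *Klf11* were 118, 259 and 135 against 383, 586 and 405, and those of *Klf9* were 2704, 3303 and 3187 against 5783, 6203 and 6516. In both genes every iron-treated mouse was above every other.

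Among the members that were lower, *Klf15* had 4596, 4036 and 4345 normalized counts in NaCl/DEX mice and 1178, 2186 and 2338 in FeSO4/DEX mice, an LFC of -1.19 (SE 0.25, edgeR FDR 0.0016). *Klf13* had 1696, 1514 and 1575 against 895, 708 and 932, an LFC of -0.91 (SE 0.16, edgeR FDR 3.6e-04). For *Klf12* the values were 805, 572 and 640.3 against 394, 239 and 404, all lower in iron-treated mice, with an LFC of -0.95 (SE 0.43) that was not called (edgeR FDR 0.091). It was called in a fit of these 6 libraries alone (edgeR FDR 0.0021) and in the fit without FeSO4/PBS mouse 1 (-0.99, edgeR FDR 0.0010), a library outside this comparison.

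**Figure D2:**
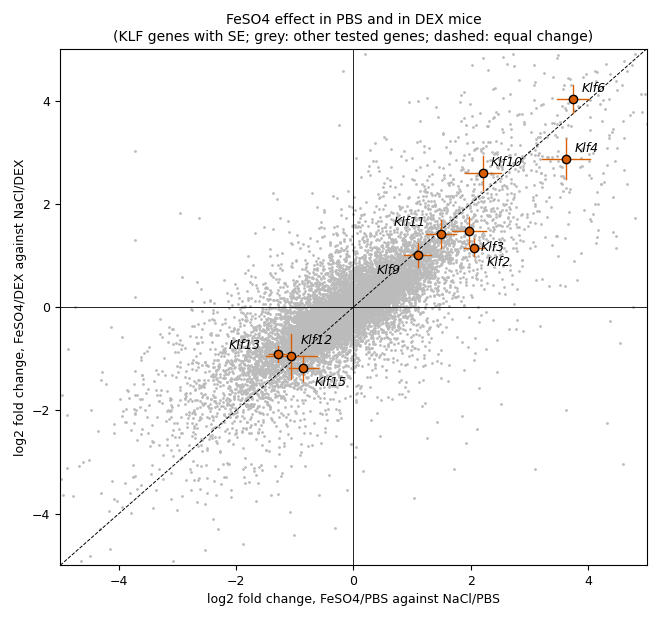
LFC by FeSO4 in PBS mice (x axis) and in DEX mice (y axis) for the 10 KLF genes (orange, bars are 1 SE) and all other tested genes within the axes (grey), where the dashed line marks equal change. Of the members, 7 lie in the upper right and 3 in the lower left, and *Klf2* lies furthest below the line relative to its SE.

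The order of the members by level per length of gene differed between the groups. In NaCl/PBS mice *Klf15* (373 normalized counts per kilobase of exon) and *Klf9* (335) were highest, and their ranges over mice overlapped. *Klf13* (228) and *Klf10* (195) followed and also overlapped each other. *Klf3* (71.6), *Klf2* (62.8), *Klf6* (61.2), *Klf12* (55.7) and *Klf11* (45.8) formed a run in which each neighbour overlapped the next, and *Klf4* (9.49) was apart below them. With the longest transcript as the length, *Klf3* stood at 130.3 per kilobase, apart from *Klf2*, since its annotated exons add up to 14998 bases and its longest transcript to 8240. *Klf9* (349) and *Klf13* (268) overlapped with that length.

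In FeSO4/PBS mice *Klf10* (899 normalized counts per kilobase), *Klf6* (823) and *Klf9* (719) led with overlapping ranges. *Klf15*, first in controls, was in place 6 with 206 per kilobase, and *Klf13*, in place 3 in controls, was in place 9 with 93.6. In the 3 NaCl/DEX mice *Klf15* (586) stood apart above *Klf9* (373), and *Klf10* had 54.5. In FeSO4/DEX mice *Klf9* (751) and *Klf6* (738) led and overlapped, followed by *Klf3* (352), *Klf10* (331), *Klf2* (277) and *Klf15* (257), in which each overlapped the next. With the longest transcript as the length, *Klf3* (640) overlapped *Klf6* (772) and stood apart above *Klf10* (455). *Klf15* (339) then came before *Klf2* (296). The normalized counts of all 10 members together were 10409 ± 1084 (SD, n = 3) in NaCl/PBS mice, 12480 ± 142 in NaCl/DEX mice, 21611 ± 7441 in FeSO4/PBS mice and 20657 ± 625 in FeSO4/DEX mice. In the FeSO4/PBS group the sum was 13146 in mouse 1 and 27121 and 24565 in the other mice.

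The third question was how the family responded to DEX itself. In NaCl/DEX against NaCl/PBS mice *Klf2* rose and *Klf10* fell, so that 1 member was higher, where 6.5% of all genes were, and 1 lower, where 7.15% were. Only *Klf10* changed beyond an LFC of 1, as did 6.38% of all genes. The members' median LFC was 0.10. In 6 of 10 members the values of NaCl/DEX mice lay apart from the controls, against 37.9% of all genes. This comparison and the first one share the NaCl/PBS mice.

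*Klf10* had 126, 313 and 248 normalized counts after DEX, each below the 574, 1151 and 728 of the controls. The LFC was -1.83 (SE 0.32, edgeR FDR 0.0014), which is 3.56-fold lower. *Klf2* had 229.7, 303 and 266 after DEX against 110.0, 155 and 137, each higher than any control, with an LFC of 0.99 (SE 0.17, edgeR FDR 0.0016). The called members thus moved in opposite directions, although FeSO4 had raised both.

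Several members were separated from their controls without being called. *Klf15* had 4596, 4036 and 4345 normalized counts after DEX, all above the controls' 2918, 2018 and 3317, with an LFC of 0.65 (SE 0.25, edgeR FDR 0.10). *Klf3* had 1839.8, 1917 and 1952 against 936, 1202 and 1082, an LFC of 0.83 (SE 0.28, edgeR FDR 0.066). DESeq2 called both, with an adjusted p of 0.047 for *Klf15* and 0.020 for *Klf3*, as did a fit of these 6 libraries alone (edgeR FDR 0.016 and 3.8e-04). Leaving out a library outside the comparison also brought calls, for *Klf3* FeSO4/PBS mouse 1 or 2 (edgeR FDR 0.0022 and 0.0079) and for *Klf15* FeSO4/DEX mouse 1 (edgeR FDR 0.041). *Klf3* was called with the replicate block too (edgeR FDR 0.038). *Klf4* was higher in each DEX mouse (LFC 0.85, SE 0.44) and *Klf6* lower in each (LFC -0.44, SE 0.26), with edgeR FDRs of 0.23 and 0.30.

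*Klf9* did not pass the test after DEX. Its normalized counts were 2704, 3303 and 3187 in NaCl/DEX mice and 2299, 2715 and 3255 in controls, and the groups overlapped. The LFC was 0.15 with a 95% interval from -0.33 to 0.64. For *Klf11*, *Klf12* and *Klf13* the LFCs were between -0.25 and 0.04, with overlapping groups.

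Known GR target genes outside the family were looked at in the same comparison. Of a list of 6 genes, GR itself and 5 known targets, 4 rose with DEX in NaCl mice, among them *Fkbp5*, which encodes a chaperone of GR (LFC 2.24, edgeR FDR 1.4e-04), and *Tsc22d3*, which encodes the anti-inflammatory protein GILZ (LFC 1.68, edgeR FDR 2.2e-05). *Per1*, another target, was not called (LFC -0.02, edgeR FDR 0.96). *Nr3c1*, the gene of GR, had 2097, 1727 and 1912 normalized counts in NaCl/PBS mice and 796, 1218 and 1083 in FeSO4/PBS mice. It fell after FeSO4 (LFC -0.89, SE 0.15, edgeR FDR 1.8e-04).

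**Figure D3:**
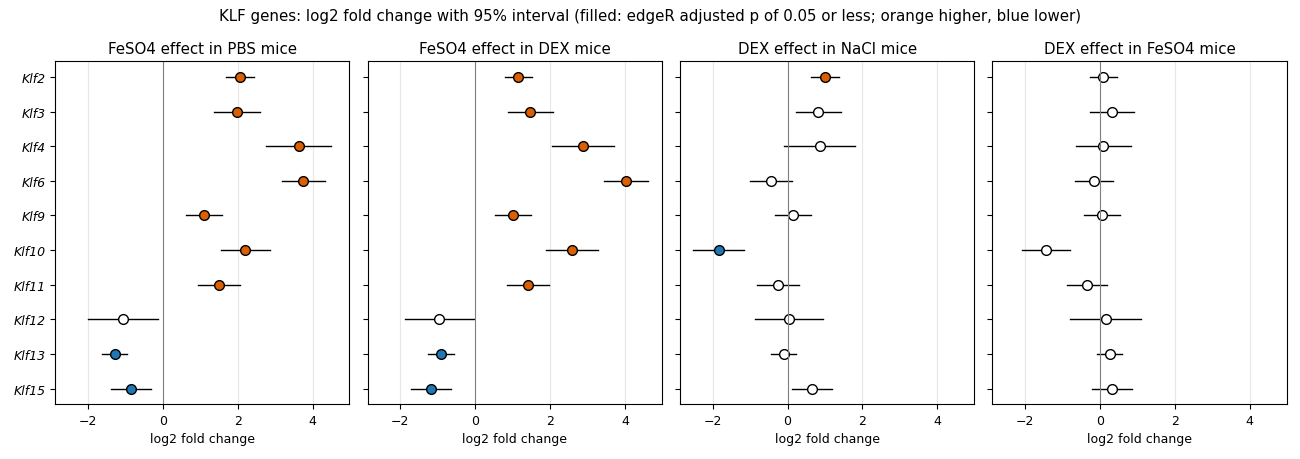
LFC of the 10 KLF genes with its 95% interval in 4 comparisons, each fitted across all 12 libraries, where filled circles passed an edgeR FDR of 0.05 (orange higher, blue lower) and open circles did not. With FeSO4, 9 of 10 are filled in both arms, with DEX 2 in NaCl mice and 0 in FeSO4 mice.

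The fourth question was whether DEX still acted on the family after iron. In FeSO4/DEX against FeSO4/PBS mice 0 members were called higher and 0 lower by edgeR, and 0 of all 13857 genes, so that 0% of all genes was called higher, 0% lower and 0% beyond an LFC of 1. At an unadjusted p under 0.05 there were 900 genes (6.49%), with 1 member among them. DESeq2 called 10 genes, 1 of them a member. In both cases the member was *Klf10*.

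*Klf10* had 1452, 1532 and 1183 normalized counts in FeSO4/DEX mice and 2562, 4249 and 4507 in FeSO4/PBS mice. Every DEX mouse was below every mouse without DEX, a separation that held for 9.3% of all genes and for no other member. The LFC was -1.44 (SE 0.30, 95% interval -2.09 to -0.80), whose p ranked 10 among all 13857 genes, but it did not pass the adjustment over all genes (edgeR FDR 0.41, unadjusted p = 2.9e-04). DESeq2 gave -1.46 with an adjusted p of 0.0087. With each library left out in turn the LFC stayed between -1.68 and -1.30 and was never called by edgeR.

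The difference between the DEX effects on *Klf10* in FeSO4 and in NaCl mice was 0.39 (SE 0.43, edgeR FDR 0.66). Its 95% interval ran from -0.53 to 1.31 and held 0. The mean level of *Klf10* after both agents was 1389 normalized counts. It was 229 after DEX alone, 3773 after FeSO4 alone and 818 in controls.

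For the other 9 members the LFC by DEX after iron was between -0.34 for *Klf11* and 0.32 for *Klf3*, and the groups overlapped. *Klf2*, which DEX had raised in NaCl mice, had 681, 476 and 616 normalized counts in FeSO4/DEX mice and 479, 575 and 613 in FeSO4/PBS mice, an LFC of 0.09 with a 95% interval from -0.26 to 0.44. *Klf15* had 1178, 2186 and 2338 against 1176, 1975 and 1407, an LFC of 0.32 with an interval from -0.21 to 0.85.

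**Figure D4:**
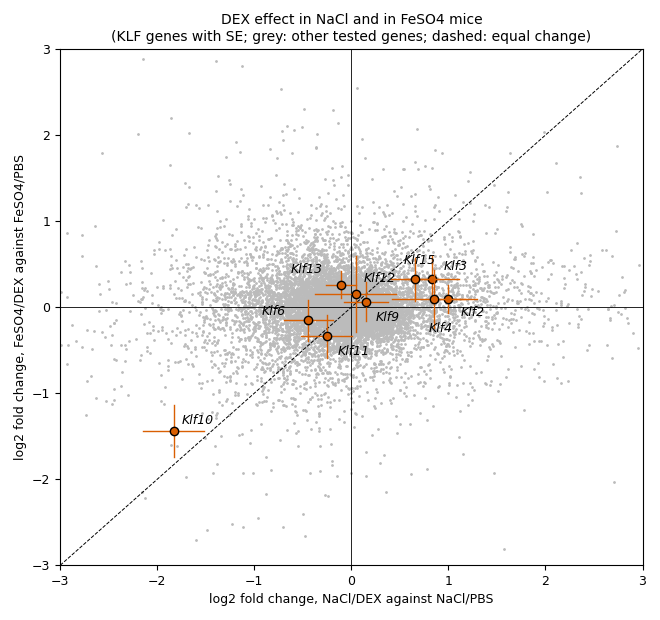
LFC by DEX in NaCl mice (x axis) and in FeSO4 mice (y axis) for the 10 KLF genes (orange, bars are 1 SE) and all other tested genes within the axes (grey), where the dashed line marks equal change. *Klf10* lies at -1.83 and -1.44, and the other 9 members lie between -0.34 and 0.32 on the y axis.

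Whether the DEX effect differed between FeSO4 and NaCl mice was tested directly as an interaction. Of the members 1 was called, *Klf2*, on the lower side, where 3.2% of all genes were, and 0 on the higher side, where 2.99% were. No member was called with a difference beyond 1, as were 4.14% of all genes. The DEX effect on *Klf2* was lower by 0.90 on the log2 scale after iron (LFC -0.90, SE 0.24, edgeR FDR 0.040). At an unadjusted p under 0.05 there were 2830 genes (20.4% of all genes), with *Klf2* as the 1 member among them. The call was close to the threshold. It was lost when libraries were scaled by size alone (edgeR FDR 0.0997), with the replicate number as a block (edgeR FDR 0.060), and without any one of 8 of the 12 libraries (edgeR FDR 0.063 to 0.105). The LFC was -0.78 with library size alone, -0.89 with the block and between -1.04 and -0.79 with a library left out. The 4 libraries without which it was kept were NaCl/PBS mouse 2, NaCl/DEX mouse 1, FeSO4/PBS mouse 1 and FeSO4/DEX mouse 1. *Klf3*, with an interaction of -0.50, was called only without FeSO4/PBS mouse 1 (-0.87, edgeR FDR 0.041).

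Patterns across the 12 libraries were compared with tested genes that had a symbol, with Gm and Rik genes left out. Among these *Thbd*, which encodes the anticoagulant receptor thrombomodulin and is a known target of KLF2, was most like *Klf2* (Pearson's r = 0.994 on log2 CPM, a description over libraries that share their groups). Its normalized counts were 84.2, 147 and 99.0 in NaCl/PBS mice, 352, 567 and 452 in NaCl/DEX mice, 1813, 2623 and 2649 in FeSO4/PBS mice and 2835, 1401 and 1792 in FeSO4/DEX mice. *Thbd* rose with FeSO4 (LFC 4.43, edgeR FDR 8.7e-08) and with DEX in NaCl mice (LFC 2.06, edgeR FDR 2.4e-04).

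*Nos3*, which encodes endothelial nitric oxide synthase, rose with FeSO4 (LFC 2.57, edgeR FDR 2.4e-07) and with DEX (LFC 1.01, edgeR FDR 0.0036). Of 7 listed endothelial targets of KLF2 and KLF4, 6 were tested, of which 3 rose and 1 fell with FeSO4 and 3 rose and 0 fell with DEX in NaCl mice. The list was not split into genes that these factors raise and genes that they lower. Besides *Thbd* and *Nos3*, *Sele* rose with FeSO4 (LFC 3.08, edgeR FDR 0.012). This adhesion molecule gene had at most 35 reads in any library, and its call was lost without FeSO4/PBS mouse 2 (edgeR FDR 0.055). *Tek*, a receptor of the vessel wall, fell with FeSO4 (LFC -1.01, edgeR FDR 0.0042), and *Vcam1*, an adhesion molecule, rose with DEX in NaCl mice (LFC 0.93, edgeR FDR 0.044), a call that was lost without any one of 6 of the 12 libraries (edgeR FDR up to 0.17).

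**Figure D5:**
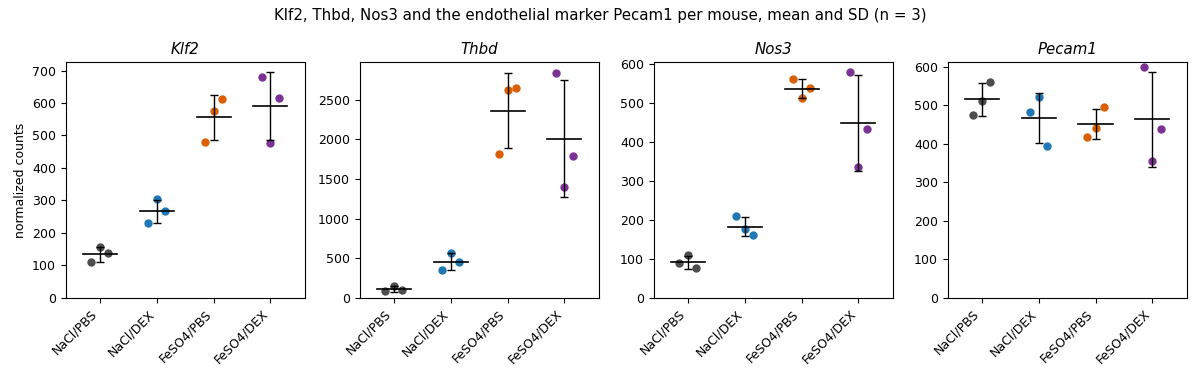
Normalized counts (linear axes from 0) of *Klf2*, *Thbd*, *Nos3* and the endothelial marker *Pecam1* in each mouse, with 1 point per mouse and the group mean with its SD (n = 3). *Klf2*, *Thbd* and *Nos3* are lowest in NaCl/PBS, intermediate in NaCl/DEX and highest in the FeSO4 groups, while *Pecam1* overlaps in all groups. *Pecam1* does not stand for all 8 listed endothelial markers, of which 2 rose and 4 fell with FeSO4.

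In whole liver, more cells of a type and more RNA per cell cannot be told apart. The summed normalized counts of 8 endothelial markers were 6397 to 7538 in NaCl/PBS mice and 5648 to 7419.8 in FeSO4/PBS mice, and overlapped. They were 6429 to 7451 in NaCl/DEX and 4684 to 8426 in FeSO4/DEX mice. Of these 8 markers 2 rose (*Cdh5* and *Lyve1*) and 4 fell with FeSO4. *Pecam1*, a defining marker, had 476, 511 and 561 normalized counts in NaCl/PBS mice and 418, 442 and 496 in FeSO4/PBS mice. Summed markers of Kupffer cells, the resident macrophages, were lower after FeSO4 (3129 to 3682 against 5737 to 6723), and 5 of 5 fell. Those of neutrophils were higher, at 638 to 812 against 46.6 to 179.5, and 4 of the 4 tested rose, but *Ly6g*, which defines these cells, had at most 3 reads in any library. Of 5 lymphocyte markers 3 were tested and 1 fell (0 to 2 with a library left out, and 0 without FeSO4/PBS mouse 2 or 3 or NaCl/PBS mouse 1 or 3), with sums of 39.3 to 57.4 against 34.6 to 61.9. Of 5 stellate cell markers 2 rose and 1 fell, with sums of 4487 to 6399.6 against 4301 to 4441. Of 6 hepatocyte markers 5 matched a row, of which 3 rose (*Ttr*, *Apoa1* and *Hnf4a*) and 0 fell. With library size alone only 1 was called, and the call of *Apoa1* was lost without any one of 7 of the 12 libraries (edgeR FDR up to 0.18). *Alb*, which encodes albumin and defines hepatocytes, was not called (LFC 0.29, edgeR FDR 0.087). It averaged 1626390 normalized counts in NaCl/PBS and 1991800 in FeSO4/PBS mice. The part of these cell populations in the members' changes was not tested.

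The patterns most like those of the other members were as follows, again as Pearson's r over the 12 libraries and without Gm, Rik and unnamed genes. The closest gene to *Klf6* was *Slc7a1*, an arginine and lysine transporter (0.996), and to *Klf4* it was *Scaf8*, which encodes an RNA polymerase-binding protein (0.990). *Klf13* was closest to *Rnf214* (0.987), *Klf3* to *Zbtb11* (0.984), *Klf12* and *Klf15* to *Tbc1d1* and *Gramd1a* (both 0.974), *Klf10* to *Trim6* (0.970), *Klf9* to *Adam2* (0.969) and *Klf11* to *Hnrnpl* (0.965). The second closest genes were *Ppp2r2a* for *Klf2* (0.986), *Ets2* for *Klf6* (0.995), *Ednrb* for *Klf4* (0.986), *Mtif2* for *Klf13* (0.985) and *Rusc2* for *Klf3* (0.982). For *Klf12*, *Klf9*, *Klf15*, *Klf11* and *Klf10* they were *Man1b1* (0.971), *Dido1* (0.968), *Sox4* (0.963), *Ppp2r5c* (0.962) and *H2-Q5* (0.957). Among members themselves *Klf2* and *Klf4* were most alike (0.966) and *Klf6* and *Klf13* most opposed (-0.905). The value was 0.909 for *Klf10* with *Klf11* and 0.546 for *Klf10* with *Klf3*.

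Other genes that act with the family were taken from lists. Of the 7 other KLF genes listed, 3 were tested, and *Klf5*, *Klf8*, *Klf14* and *Klf17* had too few reads. *Klf7*, another activator, rose with FeSO4 (LFC 1.22, edgeR FDR 0.0029). *Klf16*, a repressor of the Sin3A-binding group, had 97.8, 86.0 and 94.0 normalized counts in NaCl/PBS mice and 9.07, 16.3 and 12.8 in FeSO4/PBS mice, the lowest LFC of the tested KLF genes (LFC -2.86, edgeR FDR 3.5e-06). *Klf1*, the erythroid member, had 110.0, 92.6 and 86.3 normalized counts in NaCl/PBS mice and 109, 37.6 and 33.2 in FeSO4/PBS mice, so that only mouse 1 lay among the controls. It was not called (LFC -0.67, edgeR FDR 0.14), but was without that mouse (LFC -1.43, edgeR FDR 7.6e-04). Of 9 genes of the related SP family 4 were tested, and *Sp1*, *Sp2* and *Sp3* rose and *Sp4* fell with FeSO4, with LFCs from -0.82 to 0.79. Without NaCl/PBS mouse 3 only 2 of these were called, and *Sp4* was also lost without FeSO4/PBS mouse 1 (LFC -0.56, edgeR FDR 0.069).

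Of 8 listed corepressors that KLFs recruit, 0 rose and 3 fell with FeSO4 at LFCs of -0.33 for *Ctbp1*, -0.91 for *Ctbp2* and -0.81 for *Sin3a* (edgeR FDRs 0.018, 0.032 and 1.9e-04). Without NaCl/PBS mouse 1 only 1 of the 8 was called, and with library size alone 6 were. Of 7 genes of the MEK5, ERK5 and MEF2 pathway, which induces *Klf2* and *Klf4* in endothelium, 2 rose. *Mef2d*, which encodes a MEF2 factor, had 529, 500.3 and 595 normalized counts in NaCl/PBS mice and 2127, 3612 and 3139 in FeSO4/PBS mice (LFC 2.45, edgeR FDR 1.1e-07). The other was the kinase gene *Map3k2* (LFC 0.53, edgeR FDR 0.027), and without mouse 2 or 3 of either group only 1 of the 7 was called.

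Of 6 amino acid and glucose genes linked to KLF15, 1 rose and 2 fell with FeSO4. *Tat*, which encodes tyrosine aminotransferase, rose with FeSO4 (LFC 2.48, edgeR FDR 2.5e-07) and with DEX in NaCl mice (LFC 2.23, edgeR FDR 5.3e-06). *Pck1*, a gluconeogenic enzyme gene, fell with FeSO4 (LFC -2.49, edgeR FDR 1.6e-04), and so did *Bcat2*, which encodes an enzyme of branched-chain amino acid breakdown (LFC -2.53, edgeR FDR 3.9e-06). Of 7 TGF-beta genes linked to KLF10 and KLF11, 2 rose and 3 fell with FeSO4. The receptor gene *Tgfbr2* rose most (LFC 1.90, edgeR FDR 1.9e-08), and *Smad7*, which encodes an inhibitor of the pathway, fell (LFC -0.99, edgeR FDR 0.018), though it was not called without FeSO4/PBS mouse 2 or 3 (edgeR FDR 0.073 and 0.076). Of 5 ubiquitin ligase genes whose products act on KLF proteins, *Siah1a* rose (LFC 1.66, edgeR FDR 3.9e-06) and *Wwp1* fell (LFC -0.46, edgeR FDR 0.011).

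In DEX mice FeSO4 raised 3 and lowered 0 of the 4 tested SP genes, 0 and 5 of the 8 corepressors (3 called without NaCl/DEX mouse 2), 3 and 0 of the 7 MEF2 pathway genes, 3 and 1 of the 6 endothelial targets, 0 and 2 of the 6 genes linked to KLF15, 2 and 1 of the 7 TGF-beta genes and 2 and 1 of the 5 ligases. *Mef2d* again rose (LFC 2.97, edgeR FDR 6.1e-08), and so did *Klf7* (LFC 2.02, edgeR FDR 1.3e-04), while *Klf16* fell (LFC -2.07, edgeR FDR 1.1e-04). With DEX in NaCl mice 0 of the other KLF genes, 0 of the corepressors, 0 of the MEF2 pathway genes and 0 of the ligases were called by edgeR. At an unadjusted p under 0.05 there were 2, 1, 2 and 0 of them, against 26.8% of all genes. DESeq2 called 2 of the other KLF genes and 0 of the other lists. An edgeR fit of the 6 NaCl libraries alone, which called 2759 of all genes, called 3 of the other KLF genes and 1 MEF2 pathway gene. Without FeSO4/PBS mouse 1, a library outside this comparison, edgeR called 2 of the other KLF genes, *Klf1* (LFC -1.03, edgeR FDR 0.0073) and *Klf7* (LFC -0.62, edgeR FDR 0.036), and 1 MEF2 pathway gene, *Mef2d* (LFC -0.39, edgeR FDR 0.031). Without FeSO4/DEX mouse 1 it called *Klf16* (LFC -0.72, edgeR FDR 0.0496). The corepressors and ligases had 0 calls with any library left out. *Sp1* and *Sp4* fell (LFC -0.49 and -1.71, edgeR FDRs 0.0082 and 9.7e-04). Of the TGF-beta genes 0 rose and 3 fell with DEX, a count that was 0 to 4 with a library left out. With DEX in FeSO4 mice 0 genes of these lists were called by edgeR, 0 at an unadjusted p under 0.05 and 0 by DESeq2.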

How the data were processed

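Poly(A) RNA of 12 livers was sequenced on an Illumina NovaSeq from stranded TruSeq libraries as single reads. The authors checked reads with FastQC, aligned them to mm39 with STAR 2.7.10b and deposited whole-number counts per Ensembl gene from its gene counting, with no normalization. The strand column they took is not given in the sources used here. Symbols and coordinates came from GENCODE vM39 (GRCm39), and 665 of 55414 rows had no symbol. The counts were fitted with edgeR 4.0.16 (R 4.3.3, limma 3.58.1), using TMM scaling, filterByExpr (13857 genes kept), the quasi-likelihood test and a mean for each of the 4 groups over all 12 libraries. The LFC used a prior count of 0.125, the SE was the LFC over the square root of F, and normalized counts were scaled to the mean effective library size of 19810800. The edgeR fit was tested on simulated counts with known changes between FeSO4/PBS and NaCl/PBS mice. The simulation changed far fewer genes than were called in the data, with as many raised as lowered, so it did not test the scaling. Recovery of changes in the other comparisons and in the interaction was not tested. DESeq2 1.42.0, other scalings and filters, a replicate block and each library left out were tried as alternatives. Replicates of a group differed by more than sampling noise (chi-square per gene 16.8 to 83.9). Members and lists were chosen with earlier results of these data known. The text names all 10 members and for each member the 2 genes most like it in pattern, with Gm, Rik and unnamed genes left out. From the lists it names mainly genes that passed a test or bear on a member. Figures were drawn with matplotlib 3.10.9.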

Additional observations from a re-analysis of the deposited data

Results flagged for a closer look

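For the following genes the effect of FeSO4 in DEX mice differed from that in PBS mice by the interaction test of edgeR (FDR 0.05 or less). Equally, this is the DEX effect in FeSO4 mice less that in NaCl mice, on the log2 scale. Of the KLF genes it was *Klf2* with -0.90 (edgeR FDR 0.040), and of its known endothelial targets *Thbd* with -2.30 (edgeR FDR 0.0028) and *Nos3* with -1.26 (edgeR FDR 0.012).

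Among GR targets the difference was -2.43 for *Fkbp5*, -1.44 for *Tsc22d3* and -1.72 for *Sgk1*. Among genes linked to KLF15 it was -2.20 for *Tat* and 1.47 for *Bcat2* (edgeR FDR 0.033), a call lost without any one of 7 of the 12 libraries (edgeR FDR up to 0.098). *Sp4*, of the related SP family, had 1.44 (edgeR FDR 0.048), and this call was lost without any one of 10 of the 12 libraries (edgeR FDR up to 0.13), that is all but FeSO4/PBS mouse 3 and NaCl/DEX mouse 1. The endothelial markers *Lyve1* and *Kdr* had -2.13 and 1.78. The call of *Kdr* (edgeR FDR 0.025) was lost without any one of 7 libraries (edgeR FDR up to 0.066), and that of *Lyve1* was kept without each library in turn. For *Klf2* the call was lost without any one of 8 libraries. The libraries without which the calls of *Bcat2* and *Kdr* were both lost were FeSO4/DEX mouse 3, NaCl/DEX mice 2 and 3, and NaCl/PBS mice 1 and 3, besides FeSO4/PBS mice 1 and 2 for *Bcat2* and FeSO4/DEX and NaCl/DEX mouse 1 for *Kdr*. Groups of 3 mice were too small to test single mice as outliers.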

How the results depend on the processing

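With FeSO4 9 members were called in both arms, and with each library left out in turn 9 to 10 were called in PBS mice and 9 to 10 in DEX mice. Over all genes 6627 to 7622 were then called in PBS mice and 5011 to 6753 in DEX mice. With DEX in NaCl mice 2 were called, 2 to 3 with a library left out, 1 beyond an LFC of 1, 4 by DESeq2, 4 in the 6 libraries alone and 6 with no filter on low counts. Over all genes 1892 were called, 1187 to 2543 with a library left out and 884 beyond an LFC of 1. DESeq2 called 2297 of all genes, the 6 libraries alone 2759 and the fit with no filter 2377. With DEX in FeSO4 mice 0 were called, 0 to 0 with a library left out, and 1 by DESeq2 and 1 with no filter, each time *Klf10*. Over all genes these fits called 0, 0 to 1, 10 and 170. The fit with no filter borrowed the same spread for every gene (infinite prior degrees of freedom over 25013 genes), so its p-values take no account of a gene's own spread. For the interaction 1 was called, 0 to 2 with a library left out, and 0 beyond an LFC of 1, with library size alone or with the replicate block. Over all genes these counts were 857, 537 to 1018, 574, 902 and 729. Same-numbered mice did not deviate together (r from -0.092 to 0.129 over 18 pairs). Of 12 libraries 5 were most like one of their own number. No pairing by number was seen, though deviations from means of 3 mice cannot exclude one.

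Directions turned only for values that were not called. With library size alone, which moved the median LFC of all genes with FeSO4 in PBS mice from -0.02 to -0.34 and the share of higher calls from 49.9% to 28.2%, the interaction was 0.018 for *Klf9* and 0.022 for *Klf11*, and the LFC by DEX in NaCl mice was -0.11 for *Klf12*. That share went from 47.6% to 25.8% with DEX in NaCl mice, from 51.7% to 34.2% with FeSO4 in DEX mice and from 48.3% to 63.7% for the interaction. With a library left out, the LFC by DEX in FeSO4 mice ran from -0.025 to 0.21 for *Klf2*, -0.022 to 0.81 for *Klf3*, -0.25 to 0.45 for *Klf4*, -0.45 to 0.053 for *Klf6*, -0.24 to 0.28 for *Klf9* and -0.35 to 0.58 for *Klf12*. The interaction ran from -0.025 to 0.49 for *Klf6*, -0.42 to 0.12 for *Klf9*, -0.33 to 0.35 for *Klf11* and -0.41 to 0.53 for *Klf12*, and the LFC by DEX in NaCl mice from -0.10 to 0.16 for *Klf12*. The cause was not tested.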
